A study of Bos taurus with 10 samples.

Results

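Secreted and membrane proteins enter the endoplasmic reticulum (ER), fold there, and leave for the Golgi in coated vesicles. The genes examined here make that machinery. They were chosen by symbol alone, from families named for protein targeting and translocation (SRP, SEC61, SEC62, SSR), signal peptide cleavage (SPCS, SEC11), glycosylation (RPN1, RPN2), folding (CALR, CANX, PDIA) and vesicle transport (SEC, COP, TMED, KDELR). Of 4366 named genes on a bovine cDNA microarray, 50 fitted the rule, on 65 array elements, and 12 of them had more than 1 element. The symbols also brought in 11 genes with other functions. These are 6 subunits of the COP9 signalosome (COPS genes), the ubiquitin ligase COP1, COPRS, the histone chaperone subunit SSRP1, and the lipid-binding SEC14L1 and SEC14L6. The other 39 are genes of the secretory pathway. The values of the 11 are described apart from them, but counts and medians over 49 or 50 members pool both kinds. Among the 39, PDIA4 stood out in liver, 3.59-fold above mammary gland, and the signal peptidase subunit SEC11C was over 2-fold above adipose tissue in both liver and mammary gland. SSR3 was 2.03-fold higher in mammary gland than in liver, and most other secretory genes differed by less between the tissues. SEC11C and SSR3 had 1 element each, with no second clone to check them, while PDIA4 had 2.

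The signal recognition particle binds a nascent chain as its signal sequence leaves the ribosome and brings it to the SEC61 channel, beside which the TRAP complex (SSR subunits) sits. Signal peptidase cuts the signal sequence, oligosaccharyltransferase adds N-glycans, and calreticulin and protein disulfide isomerases assist folding. COPII coats carry cargo out of the ER, COPI coats and KDEL receptors bring escaped residents back, and p24 proteins (TMED) ride in both. Liver secretes plasma proteins and the lactating mammary gland secretes milk proteins, and both organs rely on this machinery.

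Total RNA came from liver, mammary gland, mesenteric adipose tissue, omental adipose tissue and subcutaneous adipose tissue of the cow (Bos taurus) at peak lactation. The labels speak of a cow for each tissue and give no treatment, breed or age, nor whether 1 cow gave all 5 tissues. Each tissue was 1 RNA sample on 2 arrays, with the tissue in Cy3 on one and in Cy5 on the other, against a reference standard mixed from tissues. Values are log2 ratios of tissue over reference with each array's median set to 0, and ± is the distance of either array from the mean of the 2 arrays, which have opposite dye orientations. This is a technical error. There was no replication between animals, so no p-value is given and every difference is one between these samples. A gene is said to pass the 2-fold rule where the mean difference reached 1 log2 unit with the same sign in both orientations. A ratio to the reference can be compared between tissues for 1 gene, but not between genes. In bulk tissue fewer cells of a type and less RNA per cell cannot be told apart.

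Each array held 16416 spots, of which 15970 to 16245 were usable. The labels do not state which dye is the numerator. Cy5 over Cy3 was taken as likely, since it puts TF and SLC10A1, made by hepatocytes, high in liver and milk genes high in mammary gland, and the opposite choice would change the sign of every difference below. Element names depend on a print layout that was reconstructed. Tissue labels were set against marker genes, of which the first 2 lists also served to choose the direction. Of 15 hepatocyte markers 3 were measured. TF and SLC10A1 were higher in liver than in mammary gland by 5.66 ± 0.64 and 5.56 ± 0.09 log2 units. APOA1, the other one, did not pass, at 0.53 ± 0.52 against mammary gland and 0.08 ± 0.25 against adipose tissue, and its level was higher in subcutaneous adipose tissue (1.86) than in liver (0.85). The 5 mammary epithelial markers with a value had a median level of 3.71 in mammary gland and of -0.13 to 0.36 in the other tissues. The 5 adipocyte markers had a median level of 1.45 in mesenteric and 1.52 in omental adipose tissue but -0.34 in subcutaneous adipose tissue, which is below the median in liver (0.85). In the subcutaneous sample the 13 macrophage and phagocyte markers had a median level of 2.61, against 0.30 to 1.37 elsewhere.

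Across the 5 tissues the secretory genes varied little. The gap between the highest and the lowest tissue had a median of 0.65 log2 units over the 39 secretory genes and of 0.61 over the 49 members measured on all arrays, against 0.73 over all 4307 genes so measured. It reached 1 log2 unit in 8 of 49 members (16.3%), in 5 of the 39 secretory genes (12.8%) and in 32.9% of all genes. It reached 2 log2 units in 0 of 49 members and in 10.6% of all genes. The widest gaps among the members were those of PDIA4 (1.91), SEC14L6 (1.86), COPZ2 (1.65), SEC11C (1.61) and COPS7A (1.29).

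**Figure D1:**
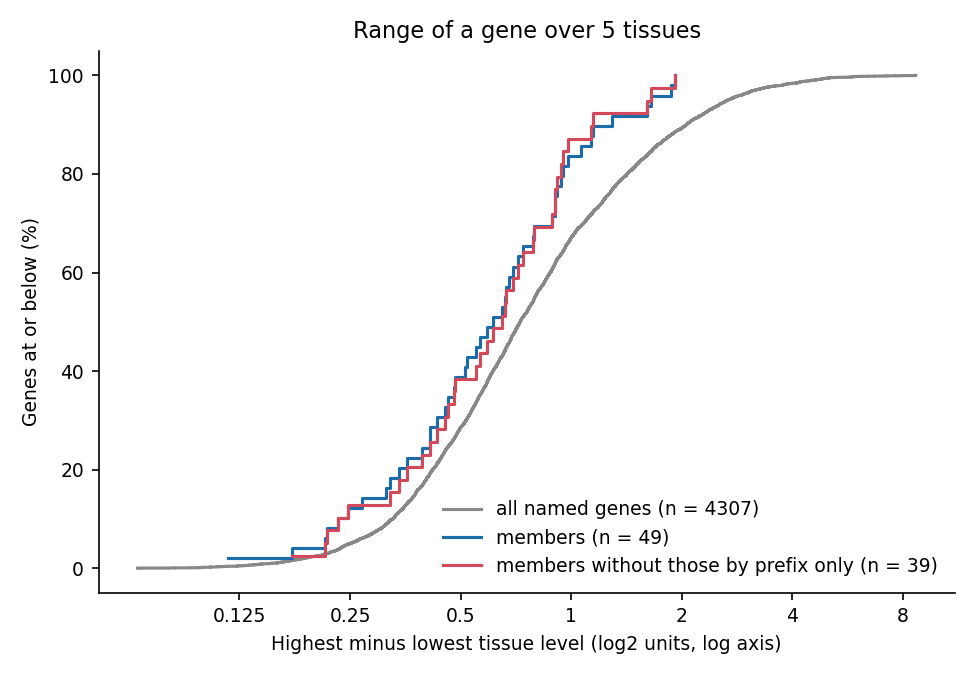
Cumulative share of genes (y axis, %) by the gap between their highest and lowest tissue level (x axis, log2 units on a log axis), for all 4307 named genes with a value on all arrays (grey), the 49 members (blue) and the 39 secretory members (red). The member curves end below 2 log2 units, while that of all genes runs to 8.67.

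Among the 39 secretory genes the highest level lay in liver for 17 and in mammary gland for 14, in mesenteric adipose tissue for 4, in omental for 1 and in subcutaneous for 3. Over all named genes, liver was highest for 24.5%, mammary gland for 23.3% and subcutaneous adipose tissue for 26.0%. Mesenteric adipose tissue was highest for 16.2% of them and omental for 9.94%. Mesenteric adipose tissue was the lowest tissue for 17 of the 39 secretory genes (43.6%) and for 15.8% of all genes. Liver was lowest for 11 (28.2%, against 29.7% of all genes) and mammary gland for 4 (10.3%, against 26.8%). Subcutaneous adipose tissue was lowest for 5 (12.8%, against 18.8%) and omental for 2 (5.13%, against 8.94%). With the ratio's direction turned, these lowest tissues would be the highest, and mesenteric adipose tissue would come first. By the errors of the levels, this order is not firm for many members. In 20 of the 49 members the highest tissue stood apart from the second by more than the combined error of both. That error treats the 2 tissues as independent, so a dye effect that a gene shows in all tissues stays in it. Such an effect cancels between arrays of one orientation, and whether the order held within each orientation was not counted. Comparisons of level errors below have the same limit.

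**Figure D2:**
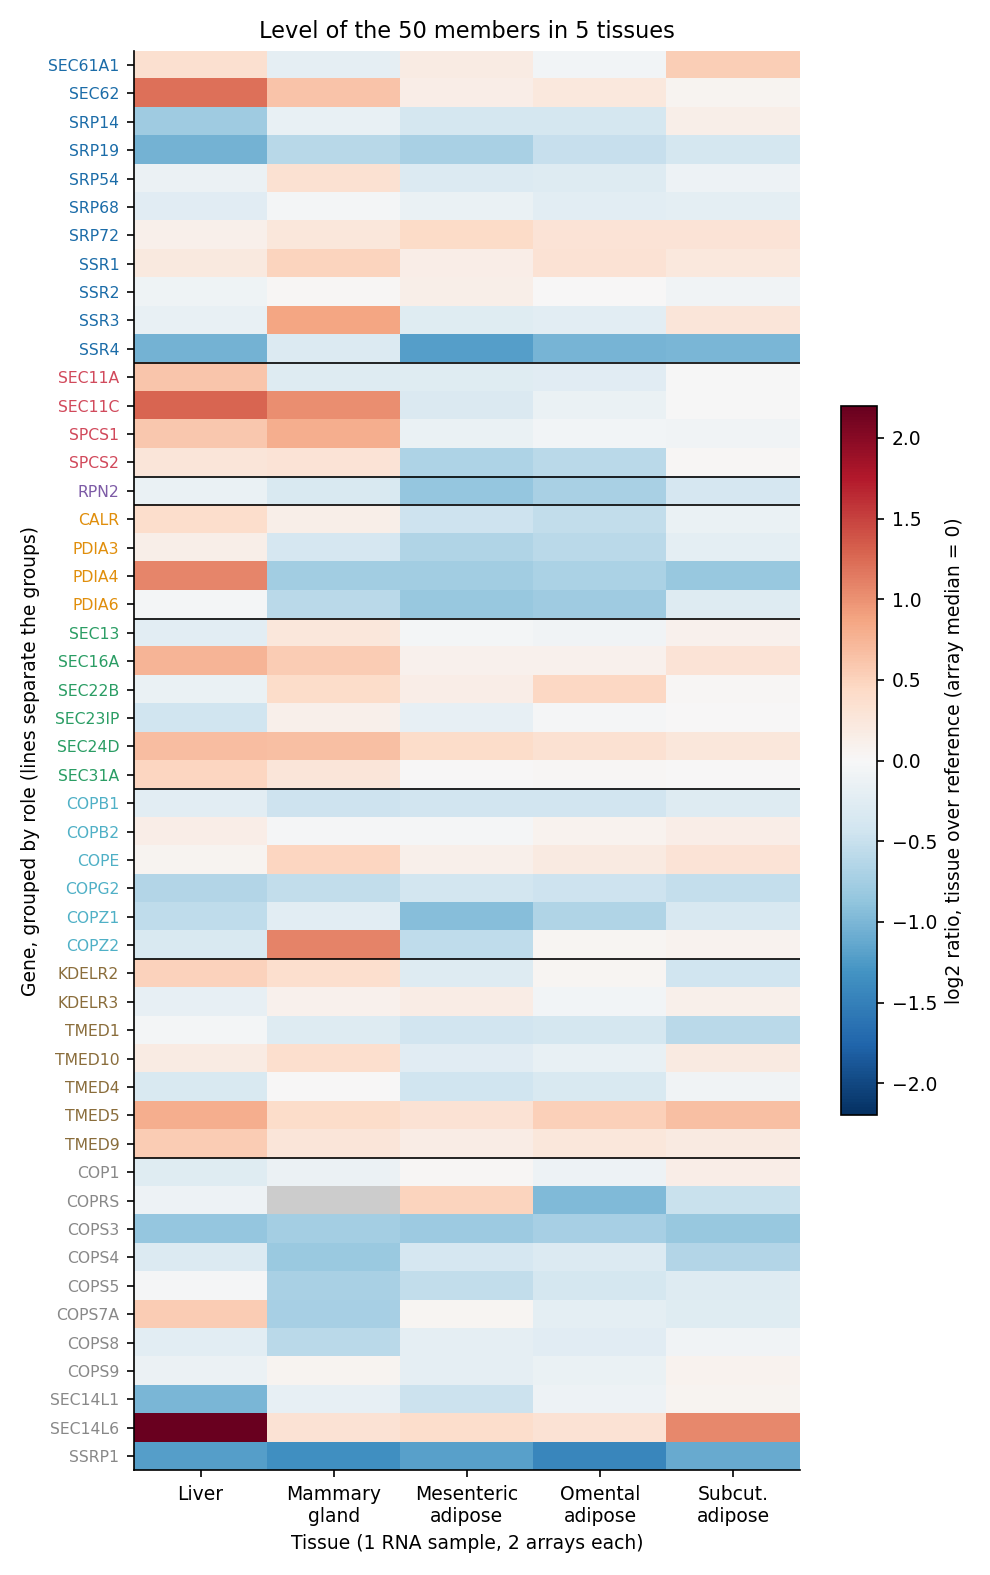
Level of each member (rows) in each tissue (columns) as the log2 ratio of tissue over reference, the mean of 2 arrays; red is above the array median, blue below, grey not measured. Lines separate, from top to bottom, targeting and translocation, signal peptide cleavage, glycosylation, folding, COPII, COPI, cargo receptors and retrieval, and the genes included by symbol only. The dark red cells are SEC14L6 (2.18), SEC11C (1.29) and SEC62 (1.20) in liver.

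Counted by the 2-fold rule, few members passed in any comparison. Between liver and mammary gland, 3 of 49 members passed in favour of liver (PDIA4, SEC14L6, COPS7A), where 9.34% of all named genes did, and 1 in favour of mammary gland (SSR3), where 4.44% did. Against adipose tissue, 4 of 50 passed in favour of liver (PDIA4, SEC11C, SEC62, SEC14L6; 7.28% of all genes) and 0 in favour of adipose tissue (6.06%). In mammary gland against adipose tissue, 2 of 49 passed in favour of mammary gland (SEC11C and COPZ2; 2.88% of all genes) and 0 in favour of adipose tissue (6.72%). Between subcutaneous and visceral adipose tissue (the mean of mesenteric and omental) 0 of 50 passed, where 6.23% of all genes did in favour of the subcutaneous and 3.72% in favour of the visceral samples. Between mesenteric and omental adipose tissue 1 of 50 passed in favour of mesenteric (COPRS, 0.829% of all genes) and 0 in favour of omental (0.576%). Of the 39 secretory genes alone, 1 passed in favour of liver over mammary gland and 1 in favour of mammary gland. Against adipose tissue, 3 of the 39 passed in favour of liver and 2 in favour of mammary gland. Between the depots 0 of the 39 passed. Without centring all genes split 303 to 301 between liver and mammary gland in place of 404 to 192, and 232 to 435 between liver and adipose tissue in place of 315 to 262, against 3 to 2 and 3 to 1 for the members. With 1 RNA sample a tissue there was no test behind any of these counts. The comparisons with adipose tissue share its arrays.

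A rule of 1.5-fold, with the same sign in both orientations, showed the direction of the smaller differences. Between liver and adipose tissue, 10 of the 39 secretory genes were past it in favour of liver (25.6%, against 13.9% of all genes) and 0 in favour of adipose tissue (against 14.5%). In mammary gland, 7 of 39 were past it above adipose tissue (17.9%, against 7.56%) and 0 below (against 17.1%). The 7 were SSR3, SSR4, SEC11C, SPCS1, SPCS2, KDELR2 and COPZ2. The median difference of the 39 genes was 0.13 for liver and 0.24 for mammary gland, both above the median of all genes (-0.06 and -0.05). The 1.5-fold rule was counted on centred arrays only, and its direction for liver depends on that. Without centring all genes moved by -0.26 in liver and -0.04 in mammary gland against adipose tissue. In liver 1 of 11 targeting and translocation genes and 0 of 6 COPI genes then lay above adipose tissue. All 4 signal peptide cleavage genes and all 4 folding genes still did. Between liver and mammary gland, 2 of 39 were past 1.5-fold in favour of liver and 3 in favour of mammary gland, below the 17.3% and 11.2% of all genes. Between the depots at 1.5-fold, SPCS2 and SEC14L6 were past it in favour of subcutaneous adipose tissue (12.6% of all genes) and 0 members in favour of visceral (8.49%), while COPRS was past it in favour of mesenteric (2.14%) and COPZ2 in favour of omental adipose tissue (2.28%).

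In the signal peptide cleavage group, liver and mammary gland stood together above adipose tissue for 3 of 4 genes. The exception, SEC11A, is a mean of 2 elements with opposite signs between mammary gland and adipose tissue. All 4 measured subunits were higher in liver than in the mean of the 3 adipose depots, by 0.68 to 1.44 log2 units, and 3 of 4 were higher in mammary gland, by 0.71 to 1.17, with the same counts without centring and after quantile normalisation. Only SEC11C, a catalytic subunit of signal peptidase, passed the 2-fold rule. Its level was 1.29 ± 0.19 in liver, 1.01 ± 0.34 in mammary gland, -0.32 ± 0.24 in mesenteric, -0.14 ± 0.18 in omental and -0.01 ± 0.25 in subcutaneous adipose tissue. On single arrays the liver and mammary gland values all lay above those of the depots. The difference from adipose tissue was 1.44 ± 0.03 (2.72-fold) for liver and 1.17 ± 0.12 (2.25-fold) for mammary gland, while liver and mammary gland differed by 0.27 ± 0.16.

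SPCS1, an accessory subunit, stood at 0.59 ± 0.04 in liver and 0.79 ± 0.37 in mammary gland, against -0.15 ± 0.25, -0.07 ± 0.06 and -0.09 ± 0.24 in mesenteric, omental and subcutaneous adipose tissue. It too was higher in both secretory organs on every array, by 0.69 ± 0.15 in liver and 0.89 ± 0.19 in mammary gland, short of the 2-fold rule. SPCS2 differed from adipose tissue by 0.68 ± 0.14 in liver and 0.71 ± 0.23 in mammary gland, but its subcutaneous level of 0.02 ± 0.23 lay within the error of the mammary level of 0.30 ± 0.45. Matched by orientation, the mammary value was the higher, at -0.15 against -0.21 with the tissue in Cy3 and 0.74 against 0.25 in Cy5. SEC11A, the other catalytic subunit, was higher in liver alone in the mean of its 2 elements. That mean was 0.60 ± 0.06 against -0.28 ± 0.11 in mammary gland and -0.26 ± 0.03, -0.24 ± 0.01 and -0.01 ± 0.01 in the depots. The 2 elements disagreed. Liver exceeded mammary gland by 1.69 ± 0.04 on one and by 0.08 ± 0.13 on the other, so the mean of 0.89 ± 0.04 describes neither. Relative to adipose tissue, the former element stood at 1.22 ± 0.12 in liver and -0.47 ± 0.07 in mammary gland. The latter stood at 0.33 ± 0.04 and 0.25 ± 0.17, higher in both organs.

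**Figure D3:**
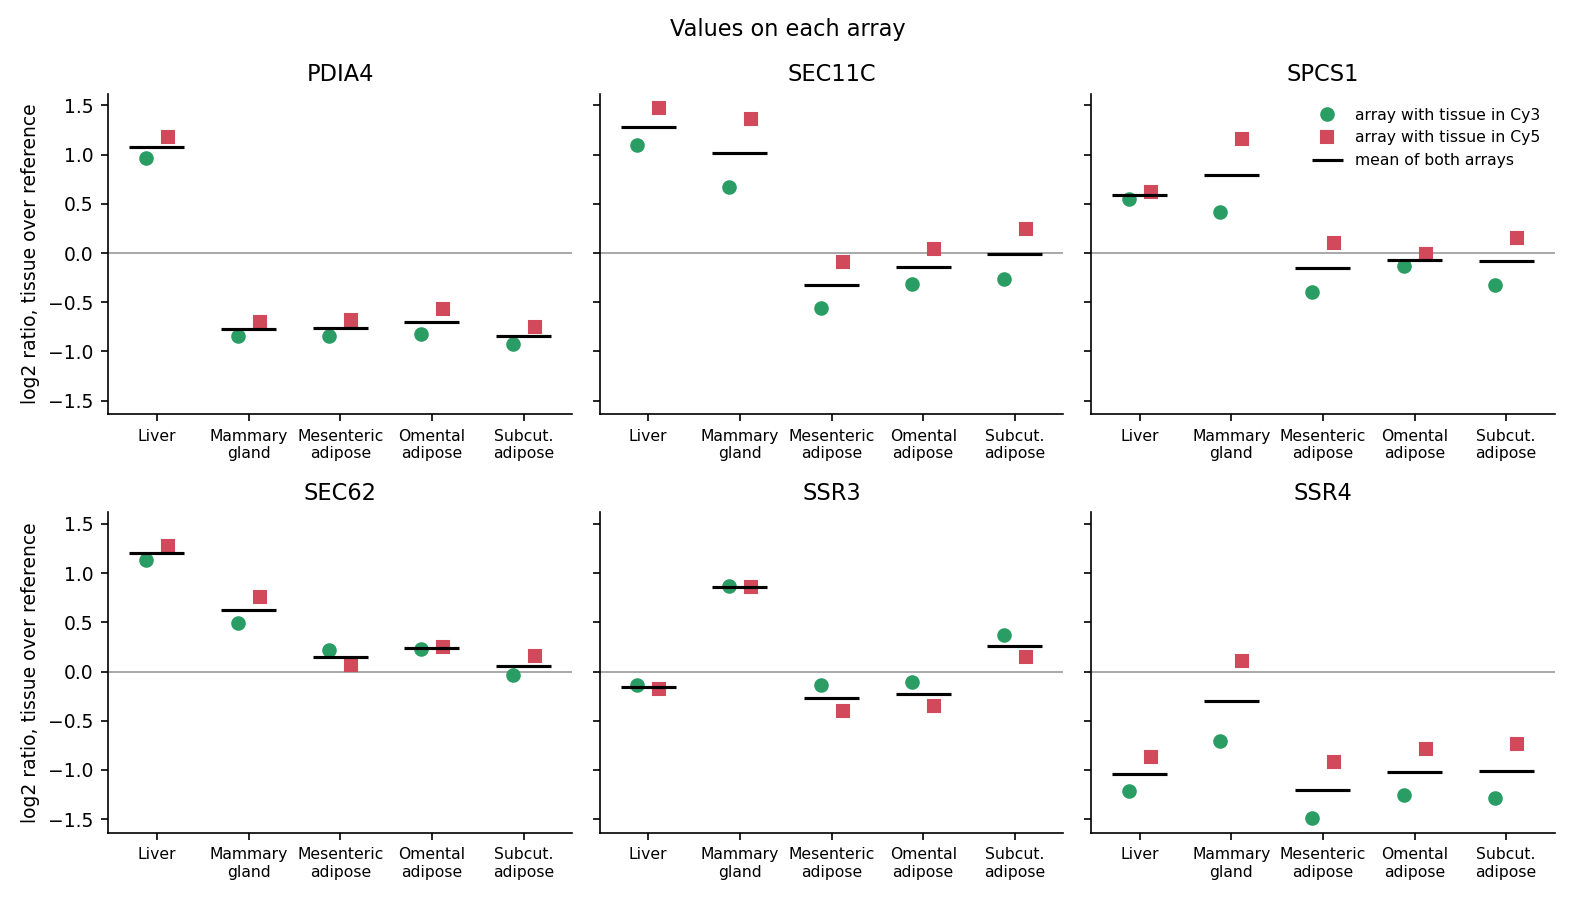
Log2 ratio of tissue over reference (y axis) of 6 members on each array: circles with the tissue in Cy3, squares with the tissue in Cy5, bars the mean of both. PDIA4 is above 0 in liver only, SEC11C and SPCS1 lie higher in liver and mammary gland than in the depots, and SSR3 is highest in mammary gland.

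Targeting and translocation showed a different order, with mammary gland above liver for most members. Of 11 genes, 9 were lower in liver than in mammary gland (median -0.28; -0.50 without centring and -0.26 after quantile normalisation), and only SEC61A1, a channel subunit, and SEC62 lay the other way. SSR3, a TRAP subunit, was the only one of the 11 to pass the 2-fold rule in that comparison. Its level was 0.86 ± 0.00 in mammary gland, -0.16 ± 0.02 in liver, -0.27 ± 0.13 in mesenteric, -0.23 ± 0.12 in omental and 0.26 ± 0.11 in subcutaneous adipose tissue. Mammary gland thus lay above all other tissues on both arrays, and liver below it by 1.02 ± 0.02 (2.03-fold). The difference between mammary gland and adipose tissue was 0.94 ± 0.12.

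SSR4, another TRAP subunit, had the same highest tissue, at -0.30 ± 0.40 in mammary gland against -1.04 ± 0.17 in liver, -1.20 ± 0.29 in mesenteric, -1.02 ± 0.23 in omental and -1.01 ± 0.27 in subcutaneous adipose tissue. It was lower in liver than in mammary gland by 0.74 log2 units (± 0.23), short of the rule. The remaining TRAP subunits were flatter, since SSR1 (3 elements) spanned 0.36 log2 units over the tissues and SSR2 (2 elements) spanned 0.22. TRAP subunits work in 1 complex, yet the gap between liver and mammary gland ran from -1.02 for SSR3 to -0.12 for SSR2.

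SEC62, which helps SEC61 take up small and post-translationally inserted proteins, was highest in liver. The order of its levels was liver (1.20 ± 0.07), mammary gland (0.63 ± 0.13), omental (0.24 ± 0.01), mesenteric (0.15 ± 0.07) and subcutaneous adipose tissue (0.06 ± 0.10), where the last 2 do not differ beyond their error. The difference of 1.06 ± 0.06 (2.08-fold) between liver and adipose tissue just passed the rule, and it did not pass without centring of the arrays (0.80), after quantile normalisation (0.82) or on the arrays with the tissue in Cy3 alone (0.99). SEC61A1 instead was highest in subcutaneous adipose tissue, at 0.54 ± 0.01, followed by liver at 0.35 ± 0.05. Its mean was lowest in mammary gland at -0.20 ± 0.10, within the error of the omental level of -0.07 ± 0.12. Mammary gland was the lower of these with the tissue in Cy3 (-0.29 against 0.06). Omental adipose tissue was the lower with the tissue in Cy5 (-0.19 against -0.10).

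The 5 measured proteins of the signal recognition particle were all lower in liver than in mammary gland, by 0.14 to 0.61 log2 units, and none passed the rule. SRP72, the smallest of these differences (-0.14 ± 0.28), had opposite signs in the 2 orientations. SRP14, which binds the Alu domain of the particle's RNA, stood at -0.78 ± 0.03 in liver, -0.17 ± 0.21 in mammary gland, -0.39 ± 0.02 in both mesenteric and omental adipose tissue, and 0.12 ± 0.03 in subcutaneous adipose tissue. Liver was thus its lowest and subcutaneous adipose tissue its highest tissue. SRP19 was lowest in liver too, at -1.05 ± 0.09 against -0.71 to -0.38 elsewhere. SRP54, the subunit that binds the signal sequence, was highest in mammary gland at 0.34 ± 0.12 against -0.31 to -0.11 elsewhere. SRP68 and SRP72, which bind each other, spanned only 0.21 and 0.32 log2 units over the tissues. Their clones did not all share a pattern over the tissues, with cosines of -0.83 to 0.54 between the 3 elements of SRP68 and of -0.38 between the 2 of SRP72.

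The 4 folding genes among the members had their highest level in liver. All 4 lay above mammary gland (median 0.52) and above adipose tissue (median 0.69), a direction that held without centring (0.31 and 0.43) and after quantile normalisation (0.43 and 0.72). PDIA4, a disulfide isomerase of the ER lumen, carried the largest difference. It stood at 1.07 ± 0.10 in liver and within a narrow band elsewhere: -0.77 ± 0.07 in mammary gland, -0.76 ± 0.08 in mesenteric, -0.70 ± 0.13 in omental and -0.84 ± 0.09 in subcutaneous adipose tissue. The 4 lower tissues do not differ beyond their error, and no array of theirs overlaps with those of liver. Liver exceeded mammary gland by 1.85 ± 0.03 (3.59-fold) and adipose tissue by 1.84 log2 units (3.58-fold), with the same value to 2 decimals in both orientations. Its 2 elements gave 1.99 ± 0.09 and 1.70 ± 0.03 against mammary gland, and 1.90 ± 0.01 and 1.78 ± 0.00 against adipose tissue.

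PDIA3, which acts on glycoproteins together with calreticulin, was highest in liver as well, at 0.13 ± 0.02, followed by -0.21 ± 0.01 in subcutaneous adipose tissue, -0.37 ± 0.21 in mammary gland, and -0.59 ± 0.09 and -0.66 ± 0.07 in omental and mesenteric adipose tissue. The order of PDIA6 was the same, from -0.05 ± 0.16 in liver and -0.28 ± 0.06 in subcutaneous adipose tissue to -0.83 ± 0.10 in mesenteric adipose tissue. Liver exceeded mammary gland by 0.50 ± 0.23 in PDIA3 and by 0.55 ± 0.17 in PDIA6, short of the rule. CALR (calreticulin), a lectin chaperone that also binds calcium, stood at 0.38 ± 0.11 in liver, 0.12 ± 0.28 in mammary gland, -0.15 ± 0.11 in subcutaneous, -0.46 ± 0.13 in mesenteric and -0.53 ± 0.45 in omental adipose tissue. It was higher than in adipose tissue by 0.76 ± 0.12 in liver and by 0.50 ± 0.05 in mammary gland, while liver and mammary gland differed by 0.26 ± 0.17. RPN2, a subunit of oligosaccharyltransferase, ran from -0.14 ± 0.00 in liver and -0.33 ± 0.08 in mammary gland to -0.37 ± 0.03, -0.72 ± 0.07 and -0.86 ± 0.10 in subcutaneous, omental and mesenteric adipose tissue. Its difference of 0.51 ± 0.00 between liver and adipose tissue did not pass.

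COPII and ER exit genes had no member past the 2-fold rule in any of the 5 comparisons. All 6 lay above adipose tissue in mammary gland, by 0.18 to 0.39 log2 units, with the same count under both other scalings, though the orientations of SEC23IP (0.18 ± 0.41) differed in sign. In liver 3 of 6 lay above adipose tissue. SEC16A, a scaffold of ER exit sites, had the largest positive difference, 0.59 ± 0.06 between liver and adipose tissue. Its levels were 0.76 ± 0.39 in liver, 0.56 ± 0.65 in mammary gland, 0.10 ± 0.32 in mesenteric, 0.10 ± 0.27 in omental and 0.30 ± 0.38 in subcutaneous adipose tissue. These errors overlapped, but in every tissue the array with the tissue in Cy3 was the lower one. Matched by orientation, liver exceeded adipose tissue by 0.53 with the tissue in Cy3 and by 0.65 with the tissue in Cy5. SEC22B, a SNARE of ER and Golgi traffic, had the largest negative difference, lying in liver below mammary gland by 0.55 log2 units (± 0.35). Its levels were -0.14 ± 0.25 in liver, 0.41 ± 0.11 in mammary gland, 0.15 ± 0.02 in mesenteric, 0.45 ± 0.02 in omental and 0.02 ± 0.12 in subcutaneous adipose tissue. Of the coat proteins, the outer coat subunit SEC13 differed between liver and mammary gland by -0.48 ± 0.25, and its partner SEC31A (3 elements) by 0.21 ± 0.10. The cargo adaptor SEC24D differed by 0.02 ± 0.44.

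Of the 6 COPI coat genes COPZ2 alone passed the 2-fold rule. The other 5 genes spanned 0.17 log2 units (COPB2) to 0.69 (COPZ1) over the tissues. COPB1 and COPB2, the beta and beta prime subunits, differed between liver and mammary gland by 0.23 ± 0.34 and 0.17 ± 0.08. COPE, the epsilon subunit, was highest in mammary gland at 0.48 ± 0.11 while its liver (0.07 ± 0.05) and mesenteric (0.10 ± 0.06) levels lay within their error. COPZ2, a zeta subunit, passed the rule between mammary gland and adipose tissue at 1.24 ± 1.12. That value rests on 1 array, since mammary gland exceeded adipose tissue by 2.35 with the tissue in Cy5 and by 0.12 with the tissue in Cy3. Its level was -0.33 ± 0.77 in liver, -0.57 ± 0.13 in mesenteric, 0.04 ± 0.09 in omental and 0.08 ± 0.04 in subcutaneous adipose tissue. In mammary gland it was 1.08 ± 1.17, the widest error among the 49 members with a mammary value, and against liver the 2 orientations had opposite signs.

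Among the p24 cargo receptors and KDEL receptors no gene passed the 2-fold rule in any comparison. KDELR2, which returns proteins with a KDEL-like tail to the ER, was highest in liver (0.51 ± 0.04) and mammary gland (0.38 ± 0.33), followed by omental (0.04 ± 0.05), mesenteric (-0.28 ± 0.02) and subcutaneous adipose tissue (-0.44 ± 0.09). It exceeded adipose tissue by 0.74 ± 0.01 in liver and by 0.60 ± 0.27 in mammary gland. KDELR3 did not share this order, with levels from -0.18 ± 0.20 in liver to 0.16 ± 0.09 in mesenteric adipose tissue, all neighbours lying within their error. These are means of 2 elements that did not share a pattern over the tissues (cosine 0.02). Liver differed from mammary gland by -0.52 ± 0.33 on one and by -0.04 ± 0.37 on the other. TMED10 and TMED4 were highest in mammary gland, at 0.36 ± 0.18 and 0.01 ± 0.01. TMED1, TMED5 and TMED9 were highest in liver, at -0.04 ± 0.10, 0.80 ± 0.34 and 0.55 ± 0.00. For TMED10, TMED5 and TMED9 the gap to the second tissue lay within the errors of the levels. In TMED9 liver differed from mammary gland by 0.29 ± 0.33, with opposite signs in the 2 orientations. The 2 elements of TMED9 gave -0.01 and 0.59 in that comparison. TMED4 had the largest negative difference of the group, lying in liver below mammary gland by 0.35 log2 units (± 0.07). Its other levels were -0.34 ± 0.06 in liver, -0.44 ± 0.03 in mesenteric, -0.34 ± 0.08 in omental and -0.08 ± 0.04 in subcutaneous adipose tissue.

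**Figure D4:**
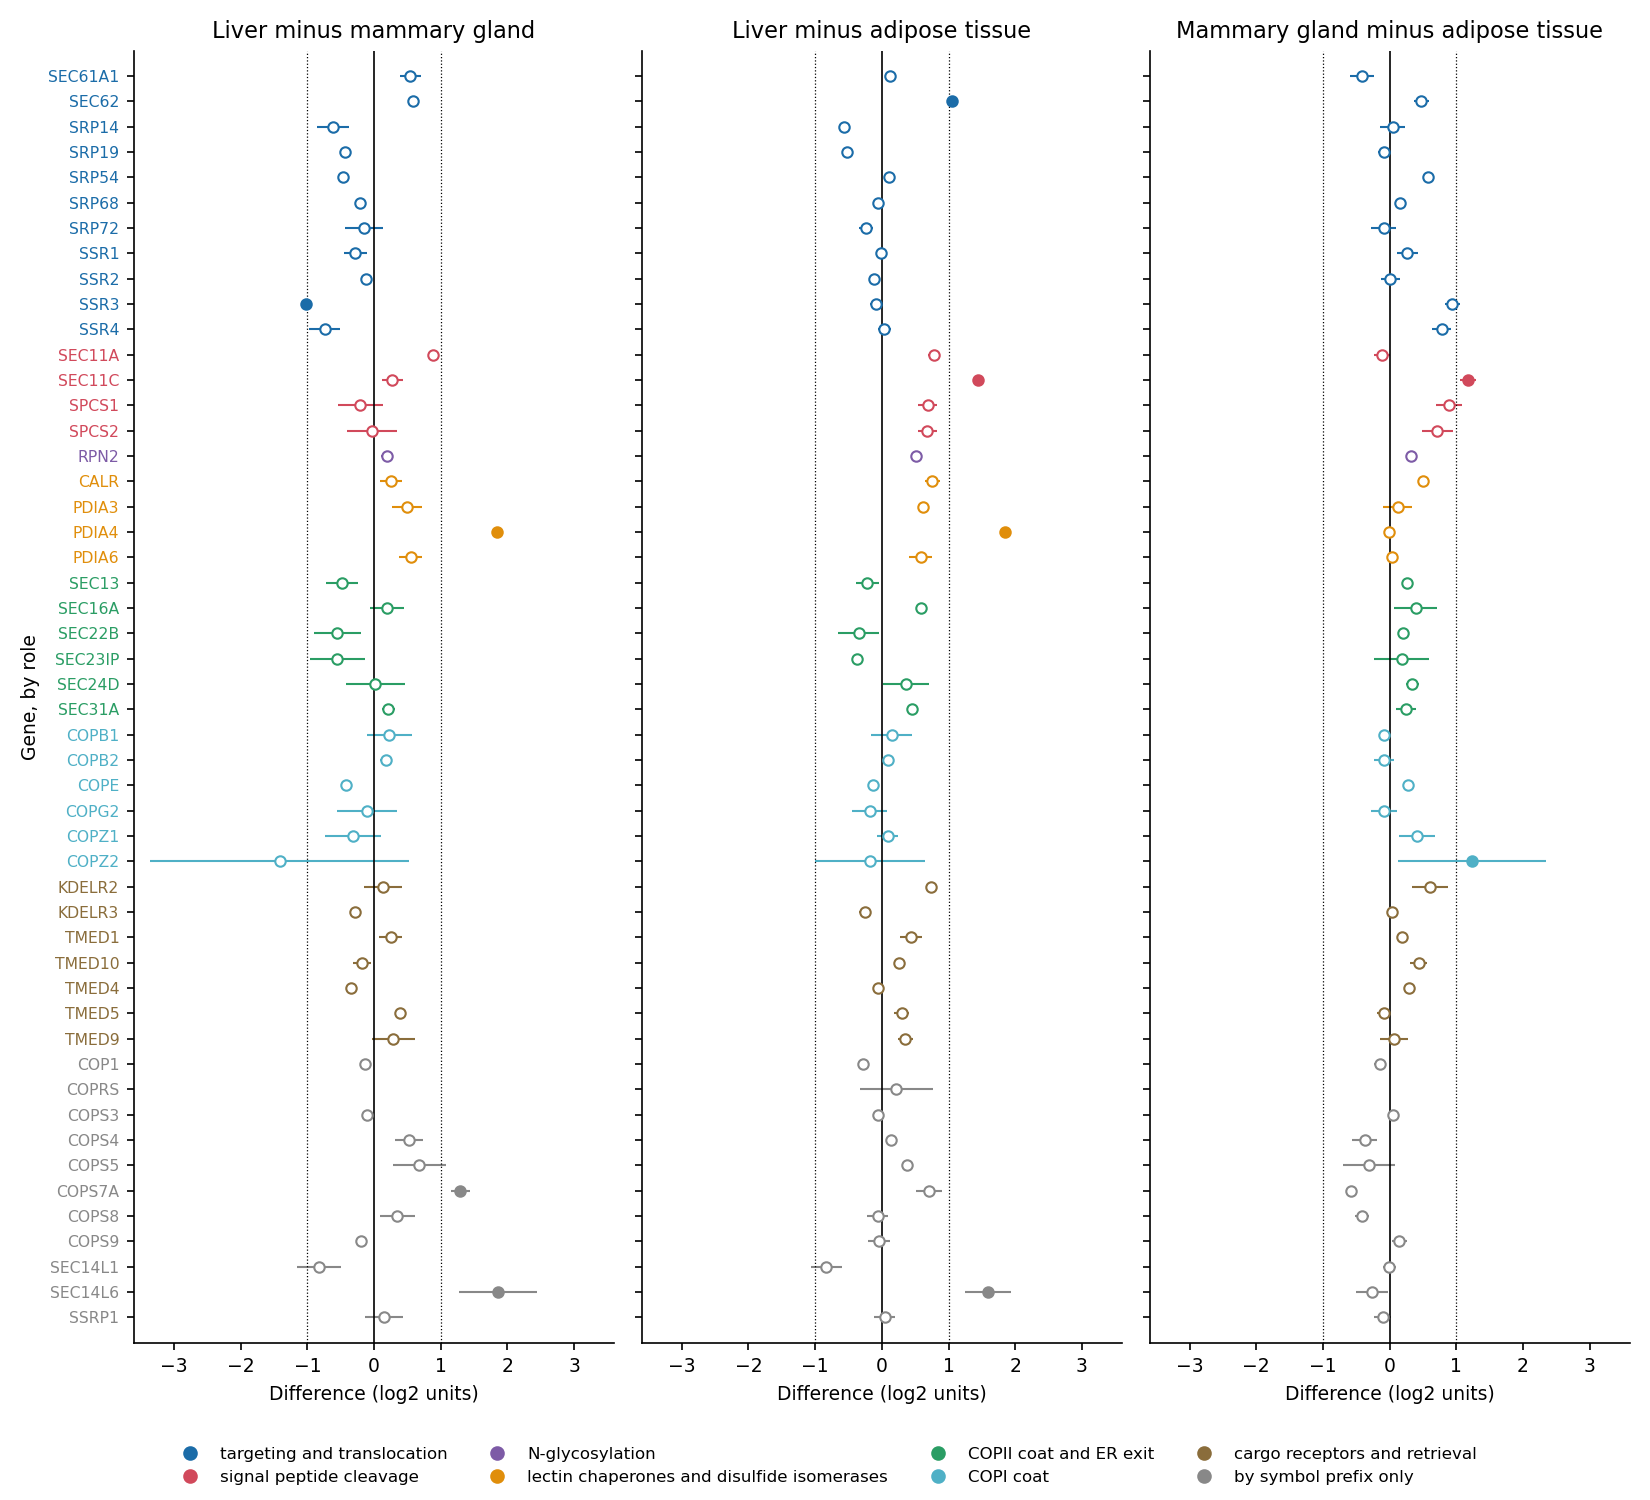
Difference between tissues (x axis, log2 units) for each member (y axis, coloured by role), with error bars that end at the values of the 2 dye orientations; filled points passed the 2-fold rule and dotted lines mark 1 log2 unit. PDIA4 at 1.85 and 1.84 leads the secretory genes in both liver panels, and the error bar of COPZ2 runs from 0.12 to 2.35 in the right panel.

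The adipose depots differed little in these genes. The members' median difference between subcutaneous and visceral adipose tissue was 0.16, against 0.01 over all genes. In the subcutaneous sample 33 of 50 members (66.0%) and 26 of the 39 secretory genes (66.7%) were higher, against 51.3% of all genes. SPCS2 (0.65 ± 0.03), PDIA6 (0.53 ± 0.07), SRP14 (0.51 ± 0.01), SSR3 (0.51 ± 0.01) and SEC61A1 (0.48 ± 0.11) led the secretory genes, and KDELR2 lay lowest at -0.32 ± 0.06. Without centring, where all genes moved up by 0.63, 10 members passed, and all genes split 858 to 40 in place of 270 to 161. In the same comparison 9 of 13 macrophage and phagocyte markers passed as higher in the subcutaneous sample and 1 as lower (median 2.87), while 4 of 5 adipocyte markers (median -1.95) and 3 of 4 endothelial markers (median -1.10) passed as lower.

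Between mesenteric and omental adipose tissue the 1 member to pass was COPRS at 1.46 ± 0.80, a gene with large errors (1.35 in the omental sample) and no value on the mammary gland array with the tissue in Cy5. Its levels were 0.48 ± 0.54 in mesenteric, -0.97 ± 1.35 in omental, -0.49 ± 0.28 in subcutaneous adipose tissue and -0.11 ± 1.08 in liver. On the arrays with the tissue in Cy5 alone the difference between the depots was 0.65. COPZ2 was lower in mesenteric adipose tissue by 0.60 log2 units (± 0.04). The other secretory genes lay between -0.32 (KDELR2) and 0.25 (SEC61A1).

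Of the 11 genes included by symbol alone, SEC14L6, COPS7A and COPRS passed the 2-fold rule in a comparison. SEC14L6 was highest in liver, at 2.18 ± 0.51, with 1.05 ± 0.17 in subcutaneous adipose tissue and 0.32 to 0.39 in the other 3 tissues. It exceeded mammary gland by 1.86 ± 0.58 and adipose tissue by 1.59 ± 0.35. SEC14L1 was lowest in liver, at -1.004 ± 0.42, against -0.17 ± 0.10 in mammary gland, -0.47 ± 0.16 in mesenteric, -0.10 ± 0.26 in omental and 0.06 ± 0.17 in subcutaneous adipose tissue. It differed by -0.83 ± 0.33 between liver and mammary gland. COPS7A, a subunit of the COP9 signalosome, was higher in liver than in mammary gland by 1.29 ± 0.14 (2.45-fold), with levels of 0.57 ± 0.35 and -0.73 ± 0.21. The depots lay between, at 0.04 ± 0.12 in mesenteric, -0.22 ± 0.19 in omental and -0.26 ± 0.15 in subcutaneous adipose tissue. The neighbouring subunits COPS5, which removes NEDD8, and COPS4 differed by 0.68 ± 0.40 and 0.52 ± 0.21, COPS8 by 0.35 ± 0.27, and COPS3 and COPS9 by -0.11 ± 0.04 and -0.19 ± 0.06.

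Of 124 other genes of the pathway listed, 62 were measured. Between liver and mammary gland, 7 of the 62 passed the 2-fold rule in favour of liver (9.34% of all genes did) and 0 in favour of mammary gland (4.44%). Against adipose tissue 7 passed in favour of liver (7.28%) and 0 in favour of adipose tissue (6.06%). In mammary gland 4 passed above adipose tissue (2.88%) and 1, TXNDC11 at -1.20 ± 0.58, below it (6.72%). The median difference of the 62 genes was -0.01, 0.29 and 0.22 in these comparisons. Of the 18 chaperones and folding enzymes, 12 lay above 0 and 6 below 0 between liver and mammary gland (median 0.09), the 6 being HYOU1, MANF, CRELD2, FKBP2, RCN3 and SERP1. The 5 that passed the rule, all in favour of liver, were the oxidoreductases P4HB (1.15 ± 0.40), ERP44 (1.36 ± 0.02) and TXNDC11 (2.11 ± 0.27), the chaperone HSP90B1 (1.18 ± 0.34) and the prolyl isomerase PPIB (1.66 ± 0.23). The levels of TXNDC11 had large errors, at 0.81 ± 1.07 in liver and -1.30 ± 1.34 in mammary gland. Its smaller error above is that of the difference matched by orientation. Against adipose tissue, liver was again above 0 for 12 and below 0 for 6 of the 18, the largest negative difference being that of SERP1 (-0.93 ± 0.14). P4HB, PPIB and HSP90B1 passed in favour of liver, at 1.68 ± 0.07, 1.13 ± 0.01 and 1.03 ± 0.23.

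Relative to adipose tissue the largest differences among these genes lay in cargo receptors of ER to Golgi transport. LMAN1, a lectin that carries glycoproteins such as coagulation factors out of the ER, stood at 1.95 ± 0.00 in liver, 0.41 ± 0.41 in mammary gland and -0.17 to -0.01 in the depots, a difference of 2.04 ± 0.12 (4.11-fold) from adipose tissue. Its partner MCFD2 was high in both organs, at 1.85 ± 0.19 in liver and 1.36 ± 0.18 in mammary gland against -0.10 to 0.25 in the depots. LMAN2, a related lectin, exceeded adipose tissue by 2.12 ± 0.25 in liver but by 0.08 in mammary gland. ERGIC1, a protein of the ER-Golgi intermediate compartment, was highest in mammary gland and exceeded adipose tissue there by 1.38 ± 0.27. Of the 21 genes in this list, 20 lay above adipose tissue in mammary gland, where 45.7% of all genes did. Of these, 2 passed the rule, where 2.88% of all genes did.

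Of 10 further genes of translocation and glycosylation, TRAM1, a translocon partner of SEC61, was the 1 to pass. It did so at 1.15 ± 0.12 in mammary gland against adipose tissue, where 2.88% of all genes passed. Its subcutaneous level of 0.07 ± 0.12 matched that of liver (0.05 ± 0.41) and lay above the mesenteric and omental levels of -0.96 ± 0.18 and -0.76 ± 0.18. Among 13 genes of the unfolded protein response and ER degradation, the ubiquitin ligase SYVN1 passed in mammary gland against adipose tissue (1.13 ± 0.06, 2.88% of all genes). DERL2, a dislocation factor, passed in liver against adipose tissue (1.03 ± 0.21, 7.28%). HERPUD1, a stress-induced ER protein, passed in subcutaneous against visceral adipose tissue (1.09 ± 0.03, 6.23%). Each was the 1 gene of the 13 to pass in its comparison. The subcutaneous level of DERL2 (0.40 ± 0.06) lay above the mesenteric (-0.47 ± 0.05) and omental (-0.48 ± 0.04) levels and below that of liver (0.84 ± 0.23). The stress response transcription factors ATF4 and DDIT3 differed between liver and mammary gland by -0.32 and -0.14.

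**Figure D5:**
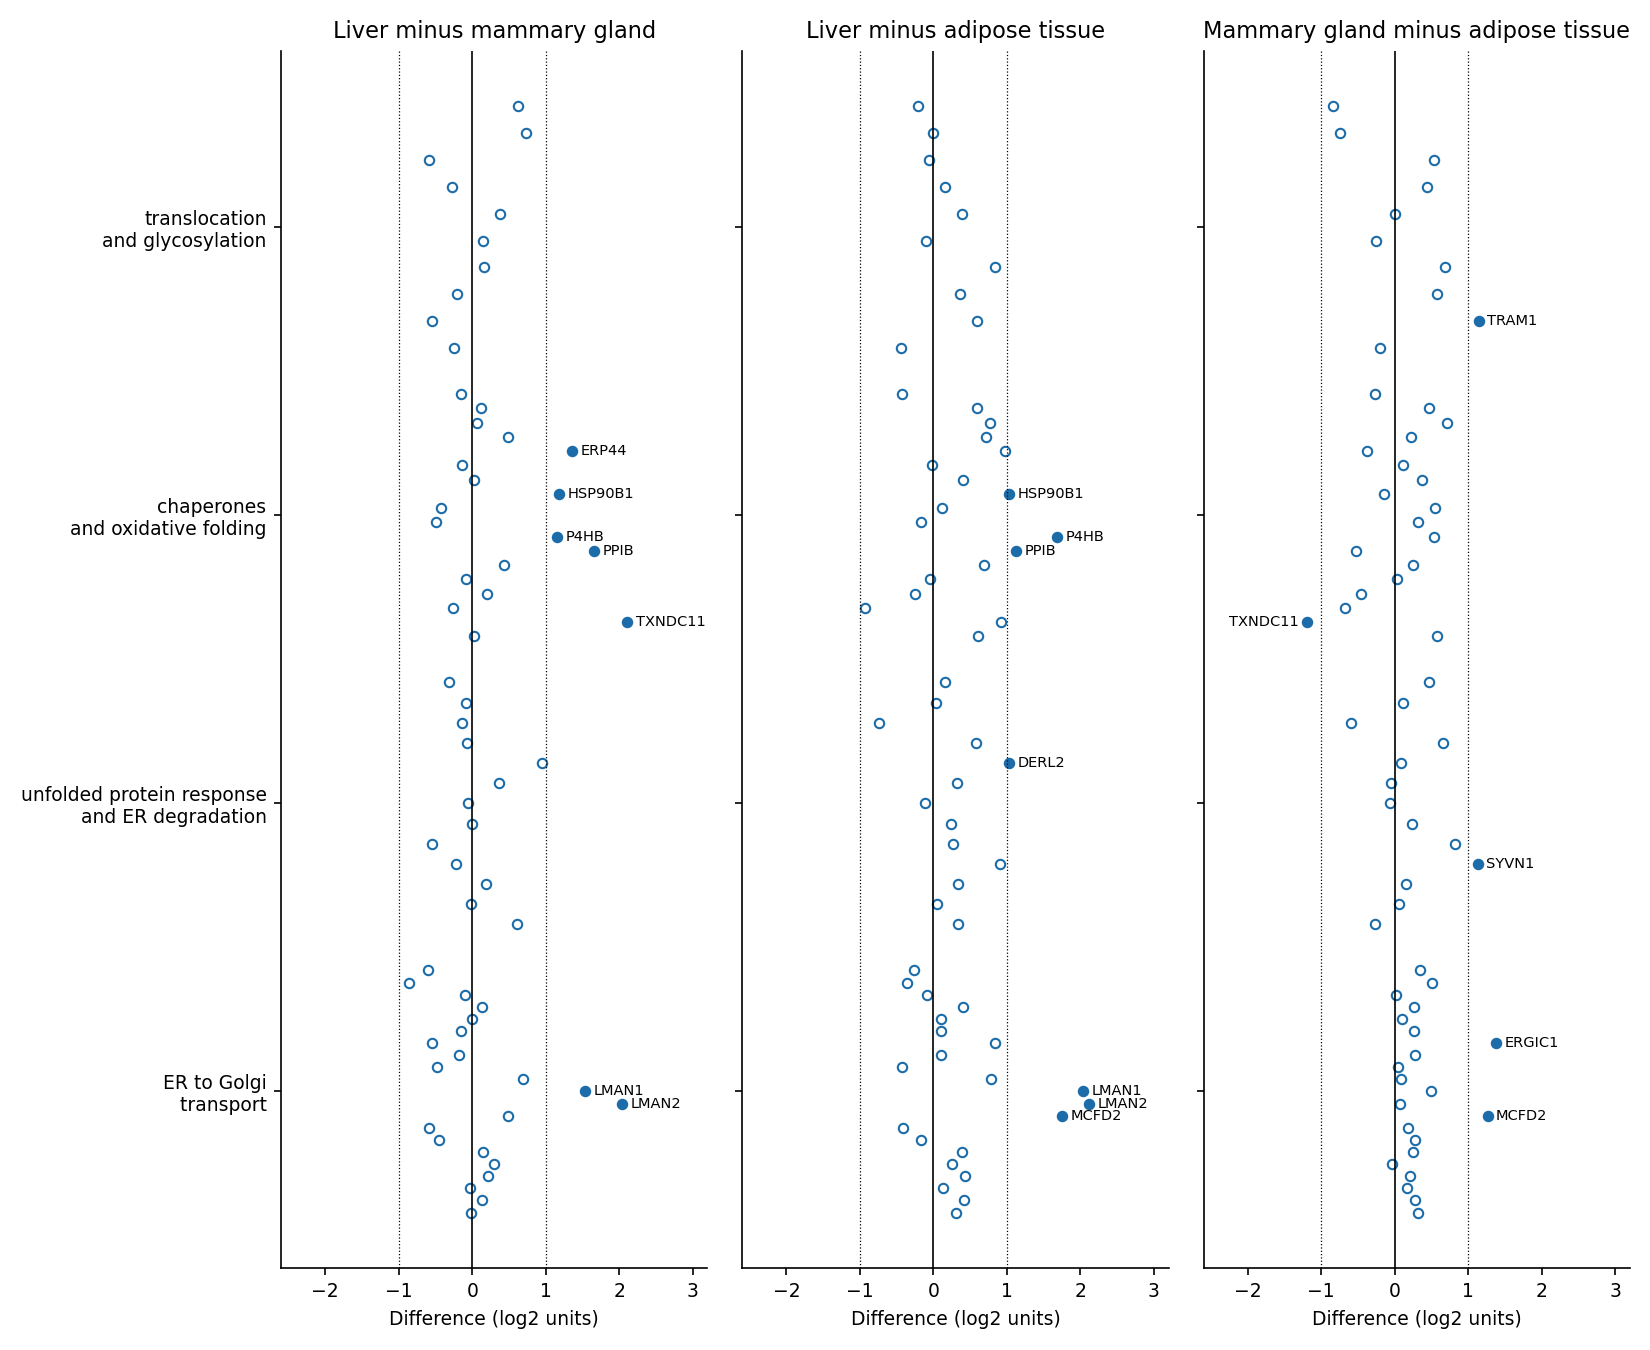
Difference between tissues (x axis, log2 units) for 62 other genes of the pathway in 4 lists (y axis); each point is a gene, filled and named where it passed the 2-fold rule, and dotted lines mark 1 log2 unit. In the comparison of liver with adipose tissue LMAN2 (2.12), LMAN1 (2.04) and MCFD2 (1.75) lie farthest to the right; TXNDC11 does (2.11) between liver and mammary gland, and ERGIC1 (1.38) between mammary gland and adipose tissue.

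Marker genes of other cell types also differed between these samples. The 8 fibroblast and matrix markers had a median of -3.38 in liver and -2.69 in mammary gland relative to adipose tissue, and 7 of 8 and 8 of 8 passed the rule in favour of adipose tissue. Of the 13 macrophage and phagocyte markers, 7 passed in favour of adipose tissue and 3 in favour of liver in that comparison (9 below and 4 above 0). Against mammary gland, 11 passed in favour of adipose tissue and 0 in favour of mammary gland, with 2 above 0. Of 3 T cell markers, 2 passed in favour of subcutaneous against visceral adipose tissue. IGHM, the 1 gene measured of the 11 plasma cell and B cell markers, was higher there too, by 1.45 ± 0.47. The part of these cell types in the members' values was not tested. With the subcutaneous depot left out of the adipose mean, the members' median difference was 0.16 for liver and 0.21 for mammary gland.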

How the data were processed

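Values came from the deposited table of 2-dye ratios, read here as log2 because 94 values share a maximum of 16.61. Per the labels' protocols, slides were scanned on a ScanArray instrument and images read with GenePix; for background correction and normalisation, nothing is stated in the sources used here. Values at the maximum were set missing, the sign of arrays with the tissue in Cy3 was turned, and each array was centred on its median (-1.32 to 0.71 as deposited). Duplicate spots, elements of a gene and then both orientations were averaged. Orientation pairs correlated at -0.78 to -0.66, and arrays of one orientation at 0.23 to 0.79. For 1 omental array the label texts disagree on the dye of the reference, and its dye field was followed.

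Annotation identifiers do not follow the table's rows. They were joined through plate layouts, of which 320 by 704 were tried on 1289 clone pairs of genes that are not members. The best reached a mean cosine of 0.46 between clones of a gene over the tissues, the next 0.08, and face-value identifiers 0.01. The 18 clone pairs of members stayed outside the search and had a mean cosine of 0.37. Of 5472 named elements on 20 plates, 5467 matched RefSeq's ARS-UCD2.0 gene table by Entrez identifier, which gave current symbols. Single clones can still be misnamed, and related sequences may cross-hybridise.

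Members, roles and lists were chosen with earlier results of these data known. The text gives values for members past the 2-fold rule, for the largest difference each way in each role group, and for further members chosen after their values were seen. Steps were tested on simulated data with Python 3.11.15, numpy 2.4.6 and pandas 2.3.3. Spot brightness was not analysed here, so dim spots were not filtered, and precision is limited by the 2 arrays per tissue.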

Additional observations from a re-analysis of the deposited data

How the results depend on the processing

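Of the members' 11 differences past the 2-fold rule, 8 stayed past it under every alternative that gave a value and 0 changed sign. The exceptions were SEC62, COPRS and COPZ2, given with their values above. Without centring, the members' median was -0.25 between liver and mammary gland, -0.14 between liver and adipose tissue, 0.79 (with 10 members past the rule) between subcutaneous and visceral, and -0.38 between mesenteric and omental adipose tissue; the median of all genes moved alike, to -0.22, -0.32, 0.64 and -0.33. After quantile normalisation it was 0.23 in liver and 0.21 in mammary gland against adipose tissue, and -0.046 between mesenteric and omental, where it was -0.016 without the omental array of disagreeing labels. Without the subcutaneous depot it was 0.16 and 0.21 for liver and mammary gland against adipose tissue. At 1.5-fold, in the order of comparisons used above, 9, 13, 7, 2 and 2 members passed. The 39 secretory genes alone gave 2 calls between liver and mammary gland, a median of 0.24 between mammary gland and adipose tissue, and 0 calls with a median of -0.076 between mesenteric and omental adipose tissue. On arrays of a single orientation, the counts ran from 4 to 7 between liver and mammary gland, 3 to 6 between liver and adipose tissue (with the tissue in Cy5, 2 of the 6, SEC14L1 and COPZ2, in favour of adipose tissue), 1 to 4 between mammary gland and adipose tissue, 0 to 1 between subcutaneous and visceral, and 0 to 1 between mesenteric and omental adipose tissue. Their medians ran from -0.068 to 0.083 between liver and mammary gland, 0.13 to 0.15 between liver and adipose tissue, 0.13 to 0.16 between subcutaneous and visceral, and -0.047 to -0.032 between mesenteric and omental adipose tissue. Over all genes, calls between subcutaneous and visceral adipose tissue rose from 431 to 898 without centring. Between mesenteric and omental adipose tissue they rose from 61 to 93 without centring, 102 and 108 on single orientations, and 117 without the omental array; at 1.5-fold the 5 comparisons had 1233, 1230, 1062, 915 and 192. The cause of these changes was not tested. No paired analysis was possible because each tissue is 1 sample.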
